A study of Mus musculus with 6 samples.

Results

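The genes that move chloride, sodium and water across the lining of the lung before birth were examined in whole lungs of embryonic day (E) 18.5 mice. All probes that the array's annotation gives, by current symbol or alias, to 9 genes were taken: Cftr, Ano1 and Slc12a2 for chloride secretion, Scnn1a, Scnn1b, Scnn1g and Atp1b1 for sodium absorption, and the regulators Nedd4l and Sgk1. They had 16 of the 45281 probes on the array, which covers 19057 genes with 1 symbol. The genes were listed by function.

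Lungs of 3 R26Foxf1; Tie2-cre embryos and of 3 R26-LSL-Foxf1 control embryos were compared on Illumina mouse WG-6 BeadChips, 1 lung per array. Both groups carried a Foxf1 transgene knocked into the ubiquitously active ROSA26 locus of C57BL/6N embryonic stem cells, held silent by a stop cassette between lox sites. In the R26Foxf1; Tie2-cre lungs, which were heterozygous for the knock-in, Cre driven by the Tie2 (Tek) promoter had removed the cassette in endothelial and hematopoietic cells. The epithelium, in which most of the 9 genes are known to act, is not a target of this Cre. The study calls the controls littermates, and nothing says which lungs shared a litter or a chip, so that p-values measure the spread between these 6 lungs only.

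Before birth the lung is filled with liquid that its own epithelium secretes. Chloride enters the cell at the basal side through the cotransporter NKCC1, the product of Slc12a2, and leaves towards the lumen through channels such as CFTR and the calcium-activated channel ANO1, and sodium and water follow. Around birth the direction turns: the epithelial sodium channel ENaC, built from the products of Scnn1a, Scnn1b and Scnn1g, lets sodium in from the lumen, the sodium pump (of which Atp1b1 encodes a beta subunit) drives it out at the basal side, and water is absorbed with it. The ubiquitin ligase NEDD4L removes ENaC from the membrane, and the kinase SGK1, induced by glucocorticoids, holds NEDD4L off.

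Cftr was the member whose probe passed the test, so the promoter window of this gene is shown, from 250 bases before to 50 bases after its start in RefSeq (GRCm38.p6, chr6:18170437-18170736, plus strand), with a CCAAT box and a variant cAMP response element in capitals.
Cftr: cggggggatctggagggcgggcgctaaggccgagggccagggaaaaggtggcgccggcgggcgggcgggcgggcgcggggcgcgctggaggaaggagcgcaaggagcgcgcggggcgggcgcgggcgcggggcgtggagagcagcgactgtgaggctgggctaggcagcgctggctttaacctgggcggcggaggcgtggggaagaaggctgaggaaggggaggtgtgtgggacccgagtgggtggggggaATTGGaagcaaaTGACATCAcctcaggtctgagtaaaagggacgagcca
In human cells this pair, an inverted CCAAT box beside a variant cAMP response element, is known to support transcription of CFTR. Here the letters begin at bases 252 and 264 of the window, just after the RefSeq start, and whether they act in these lungs was not tested. The letters CCAAT, on either strand (ATTGG in reverse), were found in 37.4% of 32851 windows of the same length, and TGACATCA (TGATGTCA in reverse) in 3.62%. Windows were read for 6 members, 11 in all because Sgk1 had several. Of the 11, 4 held the CCAAT letters (of Cftr, Atp1b1 and Sgk1), whereas only that of Cftr held TGACATCA. The perfect cAMP response element TGACGTCA, in 1.79% of all windows, was in none of the 11. The core letters of a forkhead site, TAAACA or on the other strand TGTTTA, in 13.4% of all windows, were in none of the 11 either, which says nothing of sites elsewhere or of binding.

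Values are log2 signals after background correction and quantile normalization unless stated otherwise. A probe was tested when its signal exceeded the negative controls in 3 or more lungs (a detection p under 0.01), and was called when limma gave an adjusted p below 0.05 and the groups differed by 1.2-fold or more, either way. Each lung had 19831 to 20043 detected probes. Of 20118 tested probes 488 were higher and 420 lower in R26Foxf1; Tie2-cre lungs, that is 4.51% called. Foxf1 itself was at 10.93, 10.77 and 10.83 in R26Foxf1; Tie2-cre lungs, against 10.68, 10.15 and 10.77 in control lungs. Its log2 fold change of 0.31 (SE 0.17, limma adjusted p = 0.285) did not pass the test. The place of this probe in the transcript was not known, so whether it reads the transgene cannot be told. The study reported Foxf1 overexpression in such lungs by quantitative RT-PCR, and increased staining of the protein. Xist, transcribed from the inactive X chromosome, was at 4.41 in R26Foxf1; Tie2-cre replicate 3 and at 11.87 to 12.69 in the other 5 lungs by its brightest probe.

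The chloride secretion genes lay higher in R26Foxf1; Tie2-cre lungs in all 3 cases by their brightest probe, and Cftr was the one that passed the test. Of the 16 probes of the 9 genes, 11 were tested, each detected on all 6 arrays, and the other 5 (1 of Cftr, 3 of Slc12a2 and 1 of Nedd4l) were detected on no array. Among the 11, 1 was called, against 4.51% of all tested probes, and 2 had groups that did not overlap, against 31.9% of all. Unadjusted p-values below 0.05, with the same 1.2-fold limit, were reached by 2 of the 11, against 24.9% of all, so these counts are close to the array's background. The median log2 fold change was 0.06 over the 11 probes and 0.03 over all tested probes.

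**Figure D1:**
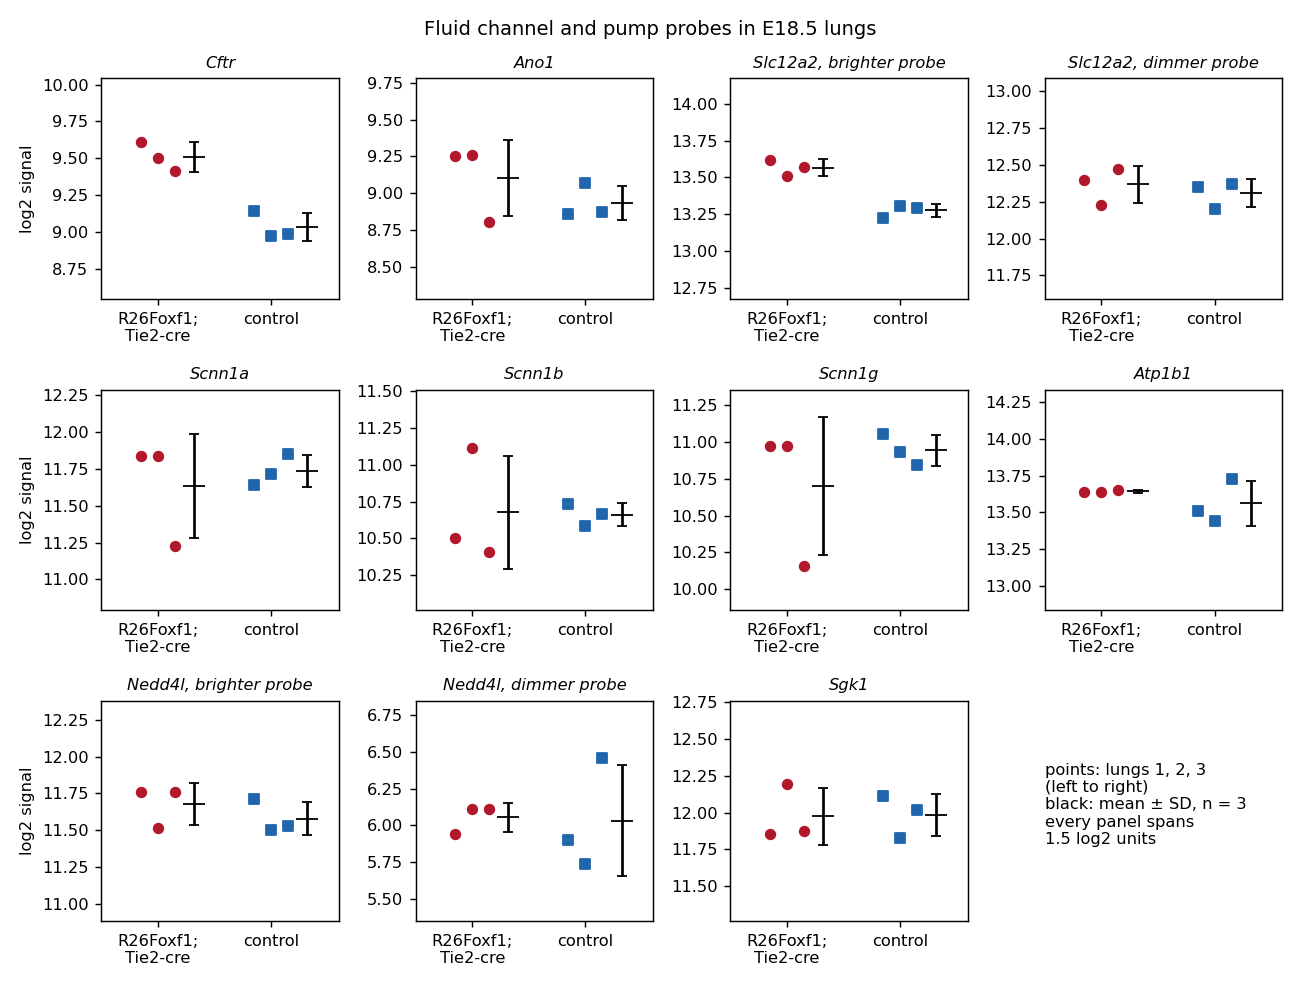
Log2 signal of the 11 tested probes in each lung, R26Foxf1; Tie2-cre at left and control at right of each panel, with the mean ± SD (n = 3) in black; every panel spans the same number of log2 units. The groups are apart for Cftr and the brighter Slc12a2 probe and overlap for the other 9, and Scnn1a and Scnn1g have 1 low R26Foxf1; Tie2-cre lung, replicate 3.

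Cftr, the cAMP-gated chloride channel of the apical membrane, was at 9.61, 9.50 and 9.41 in R26Foxf1; Tie2-cre lungs, against 9.14, 8.97 and 8.98 in control lungs. The groups did not overlap, with R26Foxf1; Tie2-cre replicate 3 still above the highest control lung. The means were 9.51 ± 0.10 in R26Foxf1; Tie2-cre lungs and 9.03 ± 0.09 in control lungs (SD, n = 3 each), a log2 fold change of 0.48 (1.39-fold, SE 0.10, 95% interval 0.23 to 0.72, limma adjusted p = 0.0493). On the deposited linear scale the signals of this probe were 816, 721 and 668 in R26Foxf1; Tie2-cre lungs, against 543, 500.3 and 450.4 in control lungs, well above background in every lung. The adjusted p lay just under the threshold, and with any 1 of the 6 lungs left out it was 0.0695 to 0.134, while the log2 fold change stayed between 0.42 and 0.53. The result of Cftr on these arrays was known when the genes were listed, so this call is not independent evidence. In whole-lung RNA, more cells of a type and more RNA per cell cannot be told apart.

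Slc12a2, which loads the cell with chloride, had its brighter probe at 13.62, 13.51 and 13.57 in R26Foxf1; Tie2-cre lungs, against 13.22, 13.30 and 13.29 in control lungs. The groups did not overlap, and the log2 fold change of 0.29 (1.22-fold, SE 0.09, 95% interval 0.08 to 0.50) had a limma adjusted p of 0.104. Its dimmer tested probe did not show this, at 12.40, 12.23 and 12.47 in R26Foxf1; Tie2-cre lungs, against 12.35, 12.20 and 12.37 in control lungs (log2 fold change 0.06, 95% interval -0.20 to 0.31, limma adjusted p = 0.770). Within a lung the difference between these probes of Slc12a2 was 1.22, 1.27 and 1.09 in R26Foxf1; Tie2-cre lungs, against 0.87, 1.10 and 0.92 in control lungs, and an exact permutation test (two-sided) gave p = 0.2, where a design of 3 and 3 lungs cannot go below 0.1. The remaining 3 probes of Slc12a2 had values between 4.25 and 5.00 in all lungs, at the level of the negative controls.

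Ano1, the calcium-activated chloride channel, was at 9.25, 9.26 and 8.80 in R26Foxf1; Tie2-cre lungs, against 8.86, 9.07 and 8.87 in control lungs. Replicates 1 and 2 of the R26Foxf1; Tie2-cre lungs were the highest of the 6 and replicate 3 the lowest. The log2 fold change was 0.17 (95% interval -0.17 to 0.52, limma adjusted p = 0.496), and with 1 lung of the R26Foxf1; Tie2-cre group left out it was 0.10 without replicate 1, 0.09 without replicate 2 and 0.32 without replicate 3. After subtracting the mean of epithelial marker genes in each lung, the difference for Ano1 was 0.06.

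Among the sodium absorption genes, none passed the test, and the alpha, beta and gamma subunits of ENaC were each lowest in the same R26Foxf1; Tie2-cre lung. Scnn1a, the pore-forming alpha subunit without which newborn mice do not clear lung liquid, was at 11.84, 11.84 and 11.23 in R26Foxf1; Tie2-cre lungs, against 11.64, 11.72 and 11.86 in control lungs. The log2 fold change was -0.10 (SE 0.18, 95% interval -0.52 to 0.31, limma adjusted p = 0.747). Scnn1g, the gamma subunit, was at 10.97, 10.97 and 10.16 in R26Foxf1; Tie2-cre lungs, against 11.06, 10.93 and 10.84 in control lungs. Replicates 1 and 2 lay inside the control range, and replicate 3 lay below every other lung. The log2 fold change of Scnn1g was -0.24 (SE 0.22, 95% interval -0.76 to 0.27, limma adjusted p = 0.518). Without R26Foxf1; Tie2-cre replicate 3 the log2 fold changes were 0.10 for Scnn1a and 0.03 for Scnn1g, so that both signs rested on this lung.

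Scnn1b, the beta subunit, was at 10.51, 11.11 and 10.41 in R26Foxf1; Tie2-cre lungs, against 10.74, 10.58 and 10.67 in control lungs. Replicate 3 of the R26Foxf1; Tie2-cre lungs was again the lowest lung, though close to replicate 1. Here replicate 2 of the R26Foxf1; Tie2-cre lungs stood above the rest. The log2 fold change was 0.02 (SE 0.19, 95% interval -0.42 to 0.45, limma adjusted p = 0.968), and -0.20 without that lung. Scnn1b and Scnn1g are neighbours on mouse chromosome 7.

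The R26Foxf1; Tie2-cre lungs were more spread out in the ENaC subunits than the control lungs, a difference that was not tested. For Scnn1a the SD over 3 lungs was 0.35 in R26Foxf1; Tie2-cre and 0.11 in control lungs. For Scnn1b it was 0.38 in R26Foxf1; Tie2-cre and 0.08 in control lungs, and for Scnn1g 0.47 in R26Foxf1; Tie2-cre and 0.11 in control lungs. Replicate 3 of the R26Foxf1; Tie2-cre lungs was the lung lowest in Scnn1a, Scnn1b and Scnn1g and the one with Xist at the level of the negative controls. This lung was also the lowest of the 6 in genes of alveolar type 1, alveolar type 2, and club and ciliated cells. With each gene taken relative to its own mean over the 6 lungs, the mean of 10 type 1 genes was -0.31 there and -0.06 to 0.15 in the other 5 lungs. The mean of 12 type 2 genes was -0.16 there and -0.06 to 0.13 in the others, and that of 9 club and ciliated genes -0.18 there and -0.10 to 0.12 in the others. Genes of epithelium in general averaged 0.00 in this lung. The part of cell composition and of sex in these values was not tested.

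Atp1b1, the sodium pump subunit, was at 13.64, 13.64 and 13.65 in R26Foxf1; Tie2-cre lungs, against 13.51, 13.44 and 13.73 in control lungs. The R26Foxf1; Tie2-cre lungs lay within the range of the control lungs, and the log2 fold change was 0.08 (95% interval -0.17 to 0.33, limma adjusted p = 0.662).

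Neither regulator passed the test. Nedd4l, the ubiquitin ligase that takes ENaC out of the membrane, had its brighter probe at 11.76, 11.51 and 11.76 in R26Foxf1; Tie2-cre lungs, against 11.71, 11.50 and 11.53 in control lungs (log2 fold change 0.10, 95% interval -0.17 to 0.37, limma adjusted p = 0.632). Its dimmer tested probe, at 5.94, 6.11 and 6.11 in R26Foxf1; Tie2-cre lungs, against 5.90, 5.74 and 6.46 in control lungs, had a log2 fold change of 0.02 (limma adjusted p = 0.952). Both probes of Nedd4l had overlapping groups.

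Sgk1, the kinase that restrains NEDD4L, was at 11.85, 12.19 and 11.88 in R26Foxf1; Tie2-cre lungs, against 12.11, 11.83 and 12.02 in control lungs. Its highest value was in R26Foxf1; Tie2-cre replicate 2, the lung that was also highest for Scnn1b. The log2 fold change of Sgk1 was -0.01 (SE 0.13, 95% interval -0.32 to 0.30, limma adjusted p = 0.966), and its sign depended on the normalization, with 0.10 after median scaling and 0.0015 in the deposited values.

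**Figure D2:**
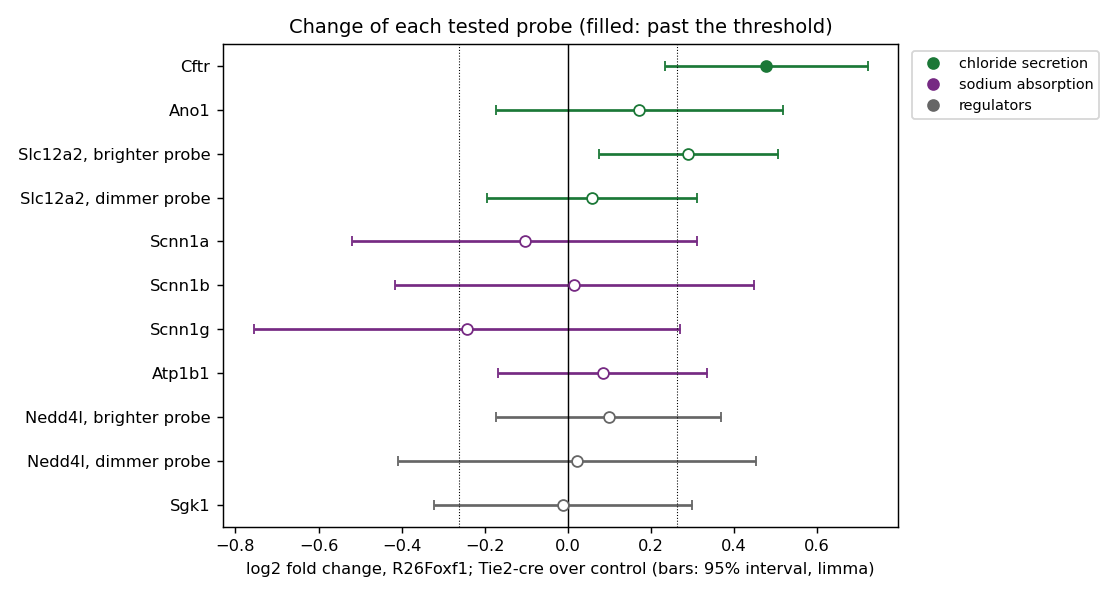
Log2 fold change of each tested probe, R26Foxf1; Tie2-cre over control, with its 95% interval from limma; the dotted lines mark the 1.2-fold limit and colours the role. Cftr at 0.48 and the brighter probe of Slc12a2 at 0.29 have intervals above 0, and the other 9 intervals include 0.

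The change of Cftr was set against that of every other member within the same lungs, by the brightest probe of each. The difference between Cftr and Scnn1g was 0.72 higher in R26Foxf1; Tie2-cre lungs, with groups apart. For Scnn1a the corresponding value was 0.58, for Sgk1 0.49, for Atp1b1 0.39 and for Nedd4l 0.38, also with groups apart. For Scnn1b (0.46), Ano1 (0.31) and Slc12a2 (0.19) the groups overlapped. Exact permutation tests (two-sided) gave p = 0.1, the smallest possible, for the 5 members with groups apart and 0.2 to 0.3 for the other 3, and 0.16 to 0.3 after Benjamini-Hochberg adjustment over the 8 comparisons. At 3 lungs a group this test cannot go below 0.1, so it cannot decide whether Cftr changed more than any other member. Cftr itself had groups apart, which enters each of these differences.

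Taken by role and relative to each gene's mean over the 6 lungs, the 3 chloride secretion genes averaged 0.26, 0.19 and 0.02 in R26Foxf1; Tie2-cre lungs, against -0.16, -0.12 and -0.19 in control lungs. The 4 sodium absorption genes averaged 0.04, 0.20 and -0.33 in R26Foxf1; Tie2-cre lungs, against 0.04, -0.03 and 0.08 in control lungs. Secretion minus absorption was 0.21, -0.01 and 0.36 in R26Foxf1; Tie2-cre lungs, against -0.20, -0.09 and -0.26 in control lungs. In each lung of the R26Foxf1; Tie2-cre group this difference was above that of each control lung. Groups were likewise apart for 31.9% of all tested probes. In replicate 3 the difference came with low Scnn1a, Scnn1b and Scnn1g, and in replicate 1 with high Cftr, Ano1 and Slc12a2. Replicate 3 was also the lung lowest in alveolar and airway cell genes. The difference includes Cftr, whose result was known when the genes were listed, and only the brighter probe of Slc12a2. These values describe the listed genes, and no test was applied to them.

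Over the 6 lungs, the members whose relative values lay closest to each other were Scnn1b and Sgk1, with a root mean square difference of 0.12, then Cftr and Slc12a2 with 0.13. Scnn1a and Scnn1g were 0.16 apart. Cftr and Scnn1g were the farthest of all pairs, at 0.43. Across 11079 other genes, those nearest to Cftr were Notch4, a receptor of endothelial cells, with a root mean square difference of 0.053, Thsd1 with 0.056 and Epg5 with 0.063. Notch4 was at 11.40, 11.42 and 11.25 in R26Foxf1; Tie2-cre lungs, against 10.90, 10.74 and 10.83 in control lungs (log2 fold change 0.53, limma adjusted p = 0.0417). Thsd1 had a log2 fold change of 0.38 (limma adjusted p = 0.0898) and Epg5 of 0.44 (0.0572). Notch4, Thsd1 and Epg5 were picked for values close to those of Cftr, so their similar fold changes follow from the choice. Of the neighbours of Cftr on chromosome 6, Wnt2 had a log2 fold change of 0.23 (limma adjusted p = 0.227), Asz1 of 0.19 (0.452) and Lsm8 of -0.26 (0.214).

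**Figure D3:**
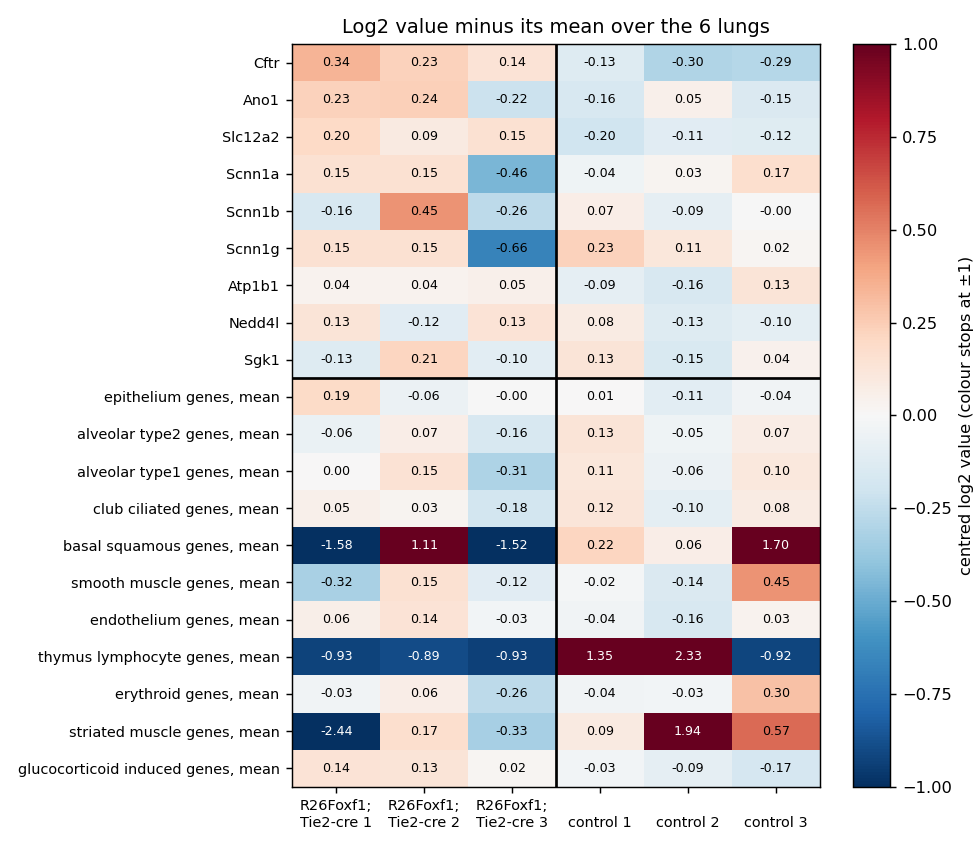
Log2 value minus its mean over the 6 lungs for the 9 members (top, brightest probe) and, below the line, the mean of each marker list, with R26Foxf1; Tie2-cre lungs at left. Cftr and Slc12a2 are positive in all 3 R26Foxf1; Tie2-cre lungs and negative in all 3 controls, and thymus and lymphocyte genes stand at 1.35 and 2.33 in control replicates 1 and 2.

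The wider machinery of lung liquid was read from 8 further lists with 94 genes, of which 84 had a probe and 62 were tested by the brightest probe. Of these 1 was higher and 0 lower, against 2.98% of all 11080 tested genes called. The median log2 fold change of the 62 genes was -0.02, against 0.05 for all tested genes and 0.08 for the 9 members. With unadjusted p-values below 0.05 and the same 1.2-fold limit, 4 were higher and 9 lower, 21.0% of the 62 and close to the 20.4% of all genes.

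Slc4a4, the basolateral sodium bicarbonate cotransporter that supplies base for anion secretion, was the gene that passed, in the list of other anion transporters. It was at 9.07, 9.13 and 9.46 in R26Foxf1; Tie2-cre lungs, against 8.34, 8.69 and 8.12 in control lungs. The groups of Slc4a4 were apart, and its log2 fold change was 0.84 (SE 0.17, limma adjusted p = 0.0452). The call of Slc4a4 was kept in 1 of the 6 fits with 1 lung left out, that without control replicate 2. In its list 8 of 9 genes had a positive log2 fold change, with a median of 0.24. Clcn2, a chloride channel of fetal airway epithelium, had 0.56 with a limma adjusted p of 0.0505.

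In the other direction, none of 6 aquaporins, the water channels, had a positive log2 fold change, with a median of -0.44, and none passed the test. The most negative was Aqp11 with -1.30 (limma adjusted p = 0.174). Aqp11 was at 6.80, 6.73 and 6.89 in R26Foxf1; Tie2-cre lungs, against 8.28, 9.26 and 6.78 in control lungs. Its high values were in control replicates 1 and 2, the lungs that also carried thymus and lymphocyte RNA. Whether that RNA contributed to Aqp11 was not tested.

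The remaining lists had medians between -0.12 and 0.06 and no gene past the threshold. Among 7 other subunits and partners of the sodium pump, Fxyd4, a modulator of the pump, had the greatest change with -0.60 (limma adjusted p = 0.168). Among 7 proteases that cut ENaC and their inhibitors it was Tmprss4 with -0.51 (0.186), and among 16 regulators of sodium channels Klhl3, an adaptor for degradation of WNK kinases, with 0.44 (0.0775). The 8 regulators of CFTR were led by Gnas, which couples receptors to cAMP, with -0.60 (limma adjusted p = 0.128). Among 4 potassium channel genes Kcnn4 had -0.39 (0.522), and among 5 other cation transporters Cnga1 had 0.31 (0.348).

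**Figure D4:**
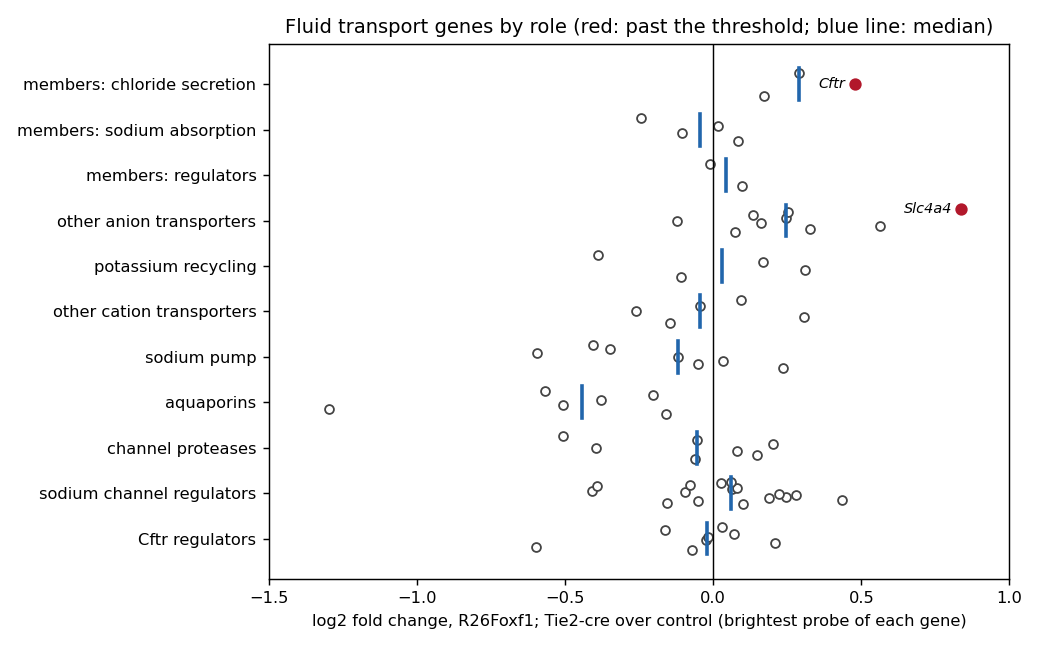
Log2 fold change, R26Foxf1; Tie2-cre over control, of the 9 members and of 62 other genes of lung liquid transport, 1 point per gene by role, with each median as a blue line and genes past the threshold in red. Cftr and Slc4a4 are the red points, the other anion transporters have a median of 0.24 and the aquaporins one of -0.44.

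Markers of the cells that could carry these genes were compared to see what moved with Cftr. The lung labels held: Sftpc of alveolar type 2 cells was at 14.18 to 14.28 in R26Foxf1; Tie2-cre lungs, against 14.25 to 14.44 in control lungs, and Ager of type 1 cells at 13.75 to 14.06 in R26Foxf1; Tie2-cre lungs, against 13.88 to 14.15 in control lungs. Of 12 tested genes of epithelium in general, Esrp1, a splicing factor of epithelial cells, was higher with a log2 fold change of 0.50 (limma adjusted p = 0.0498). The epithelial mean, over 13 genes detected on at least 1 array, was 0.19, -0.06 and 0.00 in R26Foxf1; Tie2-cre lungs, against 0.01, -0.11 and -0.04 in control lungs. No gene was called among 12 of alveolar type 2 cells, 10 of type 1 cells and 9 of club and ciliated cells, with medians of -0.07, -0.05 and -0.10. The largest changes in these lists were those of Lamp3 with -0.61 (limma adjusted p = 0.0786), Rtkn2 with -0.88 (0.0805) and Cyp2f2 with -0.30 (0.388). For Lamp3 and Rtkn2 the groups did not overlap. For the subtraction, the mean of the 12 tested epithelial genes alone was taken in each lung. After it, Cftr stood at 9.41, 9.54 and 9.41 in R26Foxf1; Tie2-cre lungs, against 9.15, 9.07 and 9.05 in control lungs. This was 0.37 higher, with the lowest p this design allows (p = 0.1, two-sided exact permutation). For Slc12a2 the same subtraction left a difference of 0.18, with groups still apart.

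RNA of neighbouring tissues differed between lungs. Of 13 thymus and lymphocyte genes 9 were detected on any array. The 1 that was tested, Cd8b1, had a log2 fold change of 0.32 (limma adjusted p = 0.106). The mean of the 9 was -0.93, -0.89 and -0.93 in R26Foxf1; Tie2-cre lungs, against 1.35, 2.33 and -0.92 in control lungs. Without control replicates 1 and 2, which left 1 control lung, the log2 fold change of Cftr was 0.52. With the thymus and lymphocyte mean as a covariate it was 0.49 (limma adjusted p = 0.106), not past the threshold. Whether this RNA contributed to the difference of Cftr was not tested. Basal and squamous genes had means of -1.58, 1.11 and -1.52 in R26Foxf1; Tie2-cre lungs, against 0.22, 0.06 and 1.70 in control lungs, and 1 of 6 tested, Krt17, was lower with a log2 fold change of -3.23 (limma adjusted p = 0.0484). Striated muscle genes, none of 12 called, had means of -2.44, 0.17 and -0.33 in R26Foxf1; Tie2-cre lungs, against 0.09, 1.94 and 0.57 in control lungs. The largest change among them was that of Tnnc2 with -3.31 (limma adjusted p = 0.0627). None of 9 endothelial genes passed. Tie1 had the largest log2 fold change of these, 0.38 (limma adjusted p = 0.0784), and Tek, whose promoter drives the Cre, had -0.02 (0.923). No gene was called among 8 of smooth muscle or 4 of erythroid cells. Des led the smooth muscle list with -0.63 (limma adjusted p = 0.141) and Alas2 the erythroid list with -0.46 (0.327). Of 10 genes known to be induced by glucocorticoids, as Sgk1 and Scnn1a are, Zbtb16 was higher with a log2 fold change of 1.16 (limma adjusted p = 0.0309) and none lower. As a list they did not move together: 6 of the 10 had a positive log2 fold change. The median was 0.04, against 0.05 for all tested genes.

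**Figure D5:**
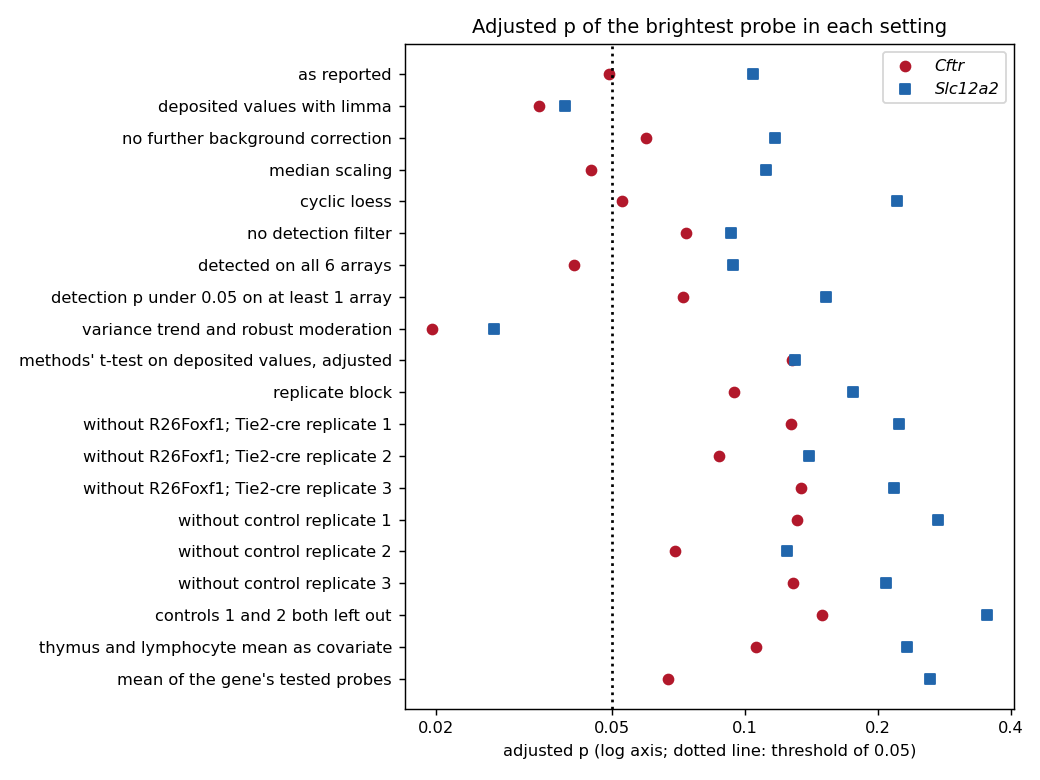
Adjusted p (log axis) of the brightest probe of Cftr and of Slc12a2 as reported and under each alternative, with the threshold of 0.05 dotted. Cftr lies between 0.0196 and 0.134 where each group keeps more than 1 lung, and every fit with 1 lung left out puts it above the threshold.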

How the data were processed

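The arrays of 3 R26Foxf1; Tie2-cre lungs and of 3 control lungs were used, and all 6 entered the comparison. The authors deposited a scanner intensity for each probe, background-subtracted (25.5% to 28.5% of values per lung below 0) and scaled to a common mean, and beside it a detection p-value that ranks the probe among negative controls. The authors also deposited values on a log2-like scale, made with lumi (variance-stabilizing transformation, robust spline normalization). These served as an alternative. The export software is not given in the sources used here.

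Intensities were processed in R 4.3.3 with limma 3.58.1. Background correction, log2 (offset 16) and quantile normalization were done with neqc, which infers the negative controls from the detection p-values. Tested probes were fitted with lmFit and eBayes and p-values adjusted by Benjamini-Hochberg over all 20118. The thresholds are those of the study, whose test was a two-sample t-test. Where a gene had more than 1 tested probe, the brightest stood for it. List levels per lung used the brightest probe detected on at least 1 array, and the number of arrays limits their precision. The script was checked on simulated data.

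Symbols came from the array annotation, updated by gene ID (34807 of 34885 probes with 1 symbol; 18 had several and 10378 none). Sequences are from RefSeq. The genes, lists and alternatives were chosen with earlier results of these data known. Besides the probes of the 9 genes, Foxf1 and Tek, the text names in each list the called genes with the largest change (at most 2 in each direction), or where none was called the gene with the largest change, and the 3 genes nearest to a member that passed. Clcn2, Xist, marker genes for the tissue check and gene neighbours were named outside this rule, after their values were seen.

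Alternatives were the deposited values, no further background correction (signals floored at 16), median scaling, cyclic loess, other detection filters, a variance trend with robust moderation, the methods' t-test, other thresholds, a replicate block, each lung left out, control replicates 1 and 2 left out, thymus and lymphocyte RNA as a covariate, the mean of a gene's probes and subtraction of the epithelial mean.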

Additional observations from a re-analysis of the deposited data

How the results depend on the processing

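The log2 fold change of Cftr was positive in all 24 alternatives (0.37 to 0.60), and 8 kept its call. Some of the 8 only loosened the threshold of the same fit (no fold limit, an adjusted p under 0.1, an unadjusted p) and could not remove it. Another was the t-test at an unadjusted p. Those at an adjusted p under 0.05 were the deposited values, median scaling, detection on all 6 arrays and the variance trend. The adjusted p of Cftr was 0.0196 to 0.134 in fits with more than 1 lung in each group. Member probes called, 1 as reported, were 2 (Cftr and Slc12a2) with the deposited values, with a variance trend and robust moderation, with the methods' t-test at an unadjusted p and with unadjusted limma p, and 0 without further background correction, with cyclic loess, with no detection filter, with a looser one (1 array at a detection p of 0.05 suffices), with the methods' t-test after adjustment, with control replicates 1 and 2 left out, with the thymus covariate and with any 1 lung left out. All probes called, 908 as reported, were 516 without further background correction, 58 with no detection filter, 250 with the looser filter, 1864 with the variance trend, 0 and 1838 with the methods' t-test after adjustment and at an unadjusted p, 2680 at an adjusted p under 0.1, 5011 at an unadjusted p, 0 without control replicates 1 and 2, and 2 to 1704 with 1 lung left out. Pathway genes called, 1 as reported, were 0 in the settings without further background correction, with no or the looser filter, with the adjusted t-test and without control replicates 1 and 2, 2 with detection on all 6 arrays, 4 with the variance trend and with the unadjusted t-test, 5 at an adjusted p under 0.1, 13 at an unadjusted p and 0 to 3 with 1 lung left out. With a replicate block 0 members, 46 probes and 0 pathway genes were called. Whether lungs with the same number form pairs is not stated. Their deviations correlated at 0.29, -0.04 and -0.03, against -0.20 to 0.17 for lungs with different numbers, and 3 lungs a group are too few to settle it. Cyclic loess gave 39.3% of calls higher, against 53.7% as reported, and median scaling placed the median of all probes at 0.10. Small fold changes turned sign: Sgk1 (-0.01 as reported) was 0.0015 in the deposited values and in both t-tests on them, 0.10 with median scaling and -0.12 to 0.0506 with 1 lung left out; Atp1b1 was -0.000797 with cyclic loess, -0.0856 without control replicates 1 and 2, -0.0829 with the covariate and -0.0280 after subtracting the epithelial mean; Scnn1b was -0.00910 with the covariate, -0.10 after that subtraction and -0.20 to 0.15 with 1 lung left out; Nedd4l was -0.0136 after that subtraction; Scnn1a was -0.21 to 0.10 and Scnn1g -0.38 to 0.0286 with 1 lung left out. The causes were not tested. The 5 untested member probes were at the level of the negative controls and say nothing of change, and at 3 lungs a group the intervals of Scnn1a and Scnn1g include a fall as large as the rise of Cftr.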
